A study of Rattus norvegicus with 6 samples.

Results

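Genes of DNA replication, mitosis and the cyclin system were followed through 3 stages of the rat lateral ventricle choroid plexus. The list held 48 genes in 3 subsets, namely 11 of DNA replication, 26 of mitosis and 11 of cyclins, Cdk1 and inhibitors of cyclin-dependent kinases. Of these, 44 had a probe set annotated to that gene alone (10 of replication, 23 of mitosis and all 11 of the cyclin subset), among 14217 genes with such a probe set. Where a gene had several, the brightest on average over the 6 arrays was used. The tissue came from Sprague-Dawley rats at embryonic day 19 (E19), from pups at postnatal day 2 (P2) and from adults, which by the study's methods were males, and the labels name no treatment. Whole plexuses of several animals were pooled for each array, in batches of 6 to 10 plexuses by the labels. By the study's methods an adult pool held fewer animals than a developing pool, so pool size differed with stage. There were 2 pools per stage and 6 arrays in all. The p values below therefore measure the spread between 2 pools per stage. In such whole tissue, fewer cells of a type and less RNA per cell cannot be told apart. The labels give no sex at E19 and P2.

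The choroid plexus is a sheet of secretory epithelium that folds around a core of fenestrated vessels, fibroblasts and macrophages and makes the cerebrospinal fluid. In the forming plexus, cells divide before they are added to the sheet, and the mature epithelium divides rarely. D cyclins with their kinases carry a cell out of G1, the Mcm helicase opens DNA for replication in S phase, and Cdk1 with B cyclins starts mitosis, while the inhibitors Cdkn1a (p21) and Cdkn1b (p27) hold the kinases in check.

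Promoters of cell cycle genes carry short elements known mostly from human and mouse cells: E2F sites in genes of the G1/S transition, and CCAAT boxes with a CHR (cell cycle genes homology region) in genes of G2 and mitosis. The RefSeq promoters of the rat build GRCr8 were searched from 250 bases before to 50 bases after the start, for 36 of the 44 members that were in the table. The following 150 bases before the start are shown for 4 members of the mitosis and cyclin subsets whose promoters hold both CCAAT and CHR letters. Other members of these subsets lack CHR letters, among them Cdca3. The stretches run 5' to 3', with CCAAT (or ATTGG on the other strand) and the CHR letters TTTGAA (or TTCAAA) in capitals.
Cdk1: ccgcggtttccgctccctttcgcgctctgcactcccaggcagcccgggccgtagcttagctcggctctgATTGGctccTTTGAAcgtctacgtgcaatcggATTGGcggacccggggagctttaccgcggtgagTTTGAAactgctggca
Ccnb2: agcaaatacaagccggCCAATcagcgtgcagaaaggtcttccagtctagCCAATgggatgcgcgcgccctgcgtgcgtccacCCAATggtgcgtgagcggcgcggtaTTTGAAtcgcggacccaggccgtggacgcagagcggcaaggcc
Cdc20: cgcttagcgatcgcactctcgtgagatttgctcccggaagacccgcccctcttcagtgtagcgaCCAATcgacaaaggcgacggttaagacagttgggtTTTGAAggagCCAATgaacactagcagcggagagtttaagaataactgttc
Cdca8: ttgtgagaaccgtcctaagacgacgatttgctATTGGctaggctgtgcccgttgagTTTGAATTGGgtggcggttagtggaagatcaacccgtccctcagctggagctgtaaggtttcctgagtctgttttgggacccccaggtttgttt
In Cdca8, TTTGAA and a reverse CCAAT overlap, so the run of capitals there holds both. For replication, the next 3 stretches show CCAAT letters and the E2F letters TTTGGCGC, TTTCCCGC, TTTGGCGG and TTTCCCGG, sought on both strands, in capitals.
Mcm5: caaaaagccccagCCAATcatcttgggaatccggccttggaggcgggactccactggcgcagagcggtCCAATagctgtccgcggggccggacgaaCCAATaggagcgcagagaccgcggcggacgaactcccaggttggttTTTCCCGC
Mcm6: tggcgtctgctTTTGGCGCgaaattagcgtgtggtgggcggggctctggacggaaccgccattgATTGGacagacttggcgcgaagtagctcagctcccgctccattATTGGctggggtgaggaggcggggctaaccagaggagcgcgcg
Tyms: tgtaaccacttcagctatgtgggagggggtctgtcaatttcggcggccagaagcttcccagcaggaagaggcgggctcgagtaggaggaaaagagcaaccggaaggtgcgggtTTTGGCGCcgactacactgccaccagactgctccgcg
The last pair, of the A cyclin Ccna1 and of Cdkn1a, the member that was lower in development, holds none of these letters.
Ccna1: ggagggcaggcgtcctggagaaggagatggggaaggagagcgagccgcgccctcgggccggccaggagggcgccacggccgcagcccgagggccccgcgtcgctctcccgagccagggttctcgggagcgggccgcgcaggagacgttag
Cdkn1a: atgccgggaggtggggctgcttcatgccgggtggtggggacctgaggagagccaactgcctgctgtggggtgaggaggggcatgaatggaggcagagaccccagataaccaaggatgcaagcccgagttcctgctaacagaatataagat
The stretches lie at Cdk1 chr20:19265143-19265292 (plus strand), Ccnb2 chr8:79981659-79981808 (minus strand), Cdc20 chr5:137255800-137255949 (minus strand), Cdca8 chr5:142483200-142483349 (minus strand), Mcm5 chr19:13488663-13488812 (plus strand), Mcm6 chr13:42404353-42404502 (minus strand), Tyms chr9:120776084-120776233 (minus strand), Ccna1 chr2:141393301-141393450 (minus strand) and Cdkn1a chr20:7150782-7150931 (plus strand).

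The letters were distributed unevenly over the subsets. CHR letters were in the promoters of 14 of 20 mitosis members (70%), 1 of 9 replication members (11.1%, Mcm2) and 2 of 7 members of the cyclin subset (28.6%, Cdk1 and Ccnb2). They were in 11.6% of the 9670 promoters of genes tested on the arrays and in 18.3% of all 33469 promoters of the same length. E2F letters were in 5 of 9 replication promoters (55.6%: Mcm3, Mcm5, Mcm6, Mcm7 and Tyms), in 2 of 20 mitosis promoters (Birc5 and Stmn1) and in 0 of 7 of the cyclin subset, against 5.51% of the promoters of tested genes and 3.37% of all promoters. CCAAT letters were in 28 of 36 members (77.8%), against 37.7% of the promoters of tested genes and 37.5% of all. CCAAT and CHR letters stood together in 13 of 20 mitosis promoters (65%), against 4.94% of the promoters of tested genes and 7.41% of all. A match is a run of letters, not a site shown to be bound, and these shares were not tested.

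**Figure D1:**
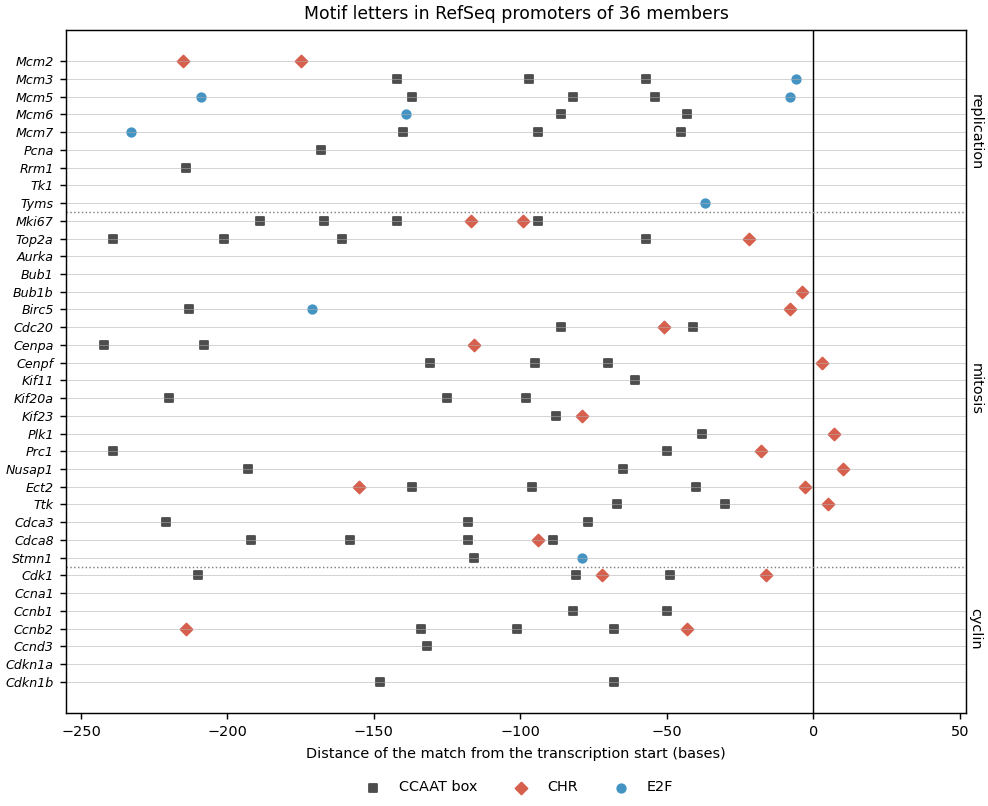
Position of CCAAT (squares), CHR (diamonds) and E2F letters (circles) in the RefSeq promoters of 36 members, with a row per gene, as the distance in bases from the transcription start (vertical line). CHR letters were found in 14 of 20 mitosis promoters and E2F letters in 5 of 9 replication promoters.

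Nearly all measured members had higher intensities in choroid plexuses of developing animals compared to adult. At E19, 41 of 44 members were higher than in the adult, Cdkn1a was lower, and Ccnd3 and Ccne2 were not called (limma, adjusted p under 0.05). Over all 10334 genes tested, 31.4% were higher and 25.2% were lower at E19. At P2, 39 of 44 members were higher than in the adult and again Cdkn1a was lower, while Tyms, Ccnd2, Ccnd3 and Ccne2 were not called. The shares of all genes tested were 28.8% higher and 21.8% lower at P2. With arrays centred on their medians, those shares became 19.9% higher and 40.7% lower at E19 and 18.7% higher and 36.6% lower at P2, while 38 members were higher at E19 and 36 at P2. All genes tested had a median Log2 FC of 0.04 at E19 and 0.05 at P2 relative to adult.

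The adult intensities of many members lay at the bottom of the scale. Intensities are in MAS5 units, and values under 100 units are treated here as not measured above background, so a fold against such a stage is given as at least its ratio to 100 units. Both adult pools were under 100 units for 23 of 44 members (4 of replication, 15 of mitosis and 4 of the cyclin subset), against 906 of the 10334 genes tested (8.77%). A gene was tested if its mean reached 100 units in at least 1 stage, and 25 members, whose adult mean was lower, passed only through E19 or P2 and so had to be higher there. Of the other 19 members, 16 were higher and 1 was lower at E19, and 15 were higher and 1 was lower at P2. With values under 100 set to 100, the median Log2 FC at E19 and P2 was 2.38 and 2.23 for the mitosis subset, 1.21 at both stages for the replication subset, and 1.78 and 2.18 for the cyclin subset.

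**Figure D2:**
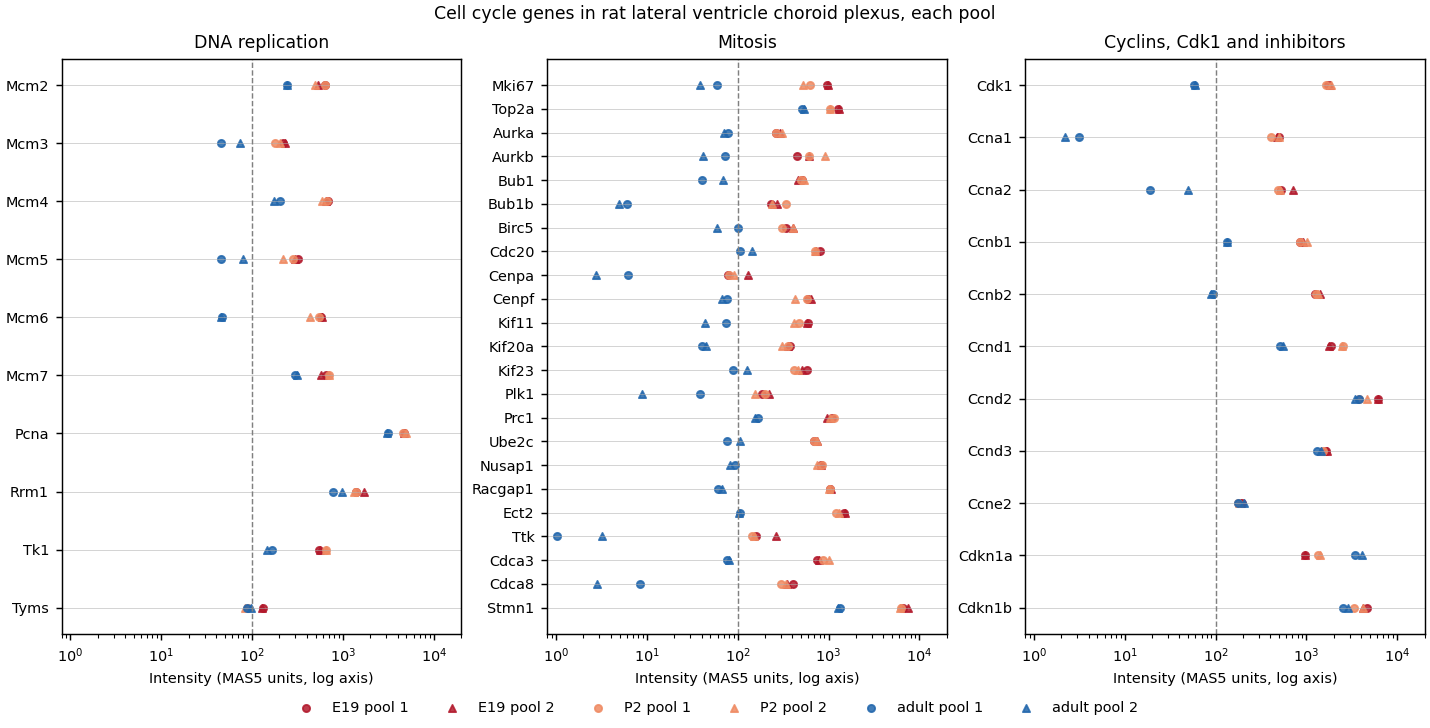
Intensity of each of 44 members in each pool (MAS5 units, log axis), with E19 in red, P2 in orange and adult in blue, circles for pool 1 and triangles for pool 2, and 100 units as a dashed line. Both adult pools were under 100 units for 23 members, and Cdkn1a is the member whose adult pools lie to the right of E19 and P2.

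**Figure D3:**
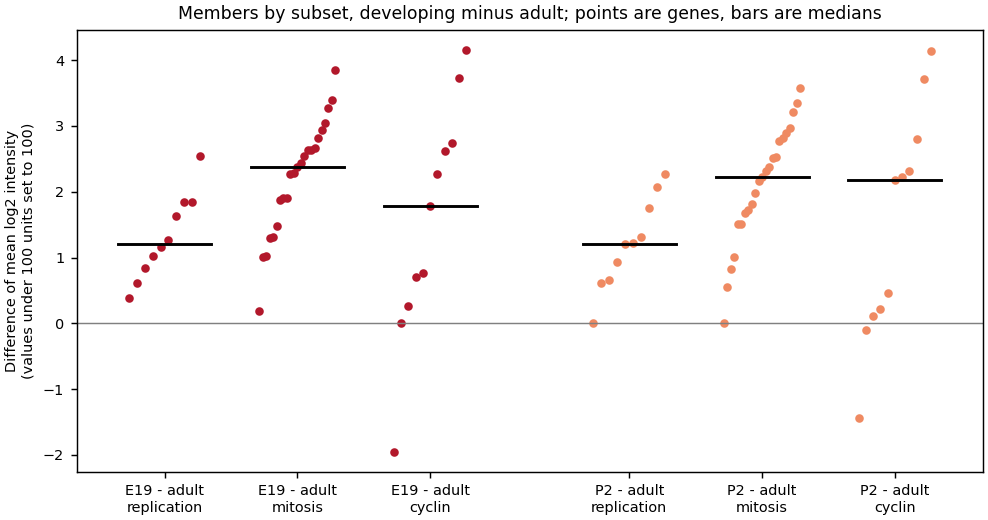
Difference of mean log2 intensity from adult, for each member (points) and as the median (bars) of each subset, with intensities under 100 units set to 100. Medians were 1.21 at both stages for replication, 2.38 and 2.23 for mitosis, and 1.78 and 2.18 for the cyclin subset.

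In the replication subset, all 10 measured members were higher than adult at E19 and 9 at P2, against 31.4% and 28.8% of genes tested. The adult mean was under 100 units for 4 of the 10, which passed the filter only through E19 or P2. The other 6 were higher at each stage. Folds ran from less than 2 for Pcna and Rrm1 to at least 5.86 for Mcm6. Mcm2 to Mcm7 encode the subunits of the helicase that opens the double strand. Mcm6 had 579 and 594 units in E19 pools, 543 and 430 in P2 pools, and 46.8 and 45.3 in adult pools. Both adult pools were under background, and Mcm6 exceeded adult at least 5.86-fold at E19 and 4.83-fold at P2 (adjusted p = 8.87e-05 and 0.000136). Mcm4 had 687 and 659 units in E19 pools, 667 and 594 in P2 pools, and 204 and 172 in adult pools, a measured 3.59- and 3.36-fold (adjusted p = 0.000381 and 0.000571). The adult pools thus had measurable Mcm4, and no developing pool overlapped them. Mcm2 and Mcm7 were 2.03- to 2.4-fold higher at both stages, with adult means of 243 ± 0.226 and 302 ± 12.6 units (SD, n = 2), while Mcm3 and Mcm5 had adult means under 100 units and were at least 1.9- to 3.09-fold higher.

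The sliding clamp and the large reductase subunit had smaller folds. Pcna, the clamp that holds DNA polymerase and also serves repair, had 4758.2 and 4741.2 units in E19 pools, 4577.1 and 4944.9 in P2 pools, and 3100.6 and 3082.4 in adult pools. It was 1.54-fold higher at either stage (Log2 FC 0.62, SE 0.09, adjusted p = 0.00317 at E19 and 0.00388 at P2), with no overlap between developing and adult pools. Rrm1, the large subunit of ribonucleotide reductase, exceeded adult 1.79-fold at E19 and 1.58-fold at P2, with adult pools at 768 and 971 units (adjusted p = 0.00904 and 0.022). The E19 call of Rrm1 was lost without E19 pool 2 (adjusted p = 0.0506), and its P2 call without P2 pool 1, P2 pool 2 or adult pool 1 (0.0918, 0.0704 and 0.07) or with arrays centred on their medians (0.101). Tk1, the thymidine kinase of dividing cells, was 3.6- and 4.23-fold higher at E19 and P2.

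Tyms, thymidylate synthase, had 133 and 129 units in E19 pools, 90 and 84.3 in P2 pools, and 88 and 96.5 in adult pools. The E19 pools stood above the others, and the P2 and adult pools overlapped under 100 units. Tyms was higher at E19 relative to adult (at least 1.31-fold, adjusted p = 0.00818), a call lost without E19 pool 1 (adjusted p = 0.0534) and with arrays centred on their medians (0.125), and it was not called at P2, where no fold is given. Rrm2, the small subunit of ribonucleotide reductase, had no probe set of its own. Its probe sets shared with Rrm2l1 had 1201.2 and 1310.3 units in E19 pools, 1341.3 and 1199.7 in P2 pools, and 93.9 and 67.6 in adult pools in the brighter case, and cannot be assigned to Rrm2 alone.

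In the mitosis subset, all 23 measured members were called higher than adult at E19 and P2, against 31.4% and 28.8% of genes tested. The adult mean was under 100 units for 17 of the 23, which passed the filter only through E19 or P2. The other 6 were higher at each stage. The subset includes motors and organizers of the spindle, checkpoint kinases, kinetochore proteins and the proteins of cell division itself. Of the genes of the central spindle and cytokinesis, Ect2, which activates RhoA at the site of division, had 1497.2 and 1521.3 units in E19 pools, 1216.9 and 1300.1 in P2 pools, and 106 and 104 in adult pools. Its adult pools were just above the cut of 100 units, a level the study calls close to background. The 14.4-fold and 12-fold differences are measured only by that cut (Log2 FC 3.85 and 3.58, SE 0.08, limma adjusted p = 5.23e-05 and 8.01e-05). Racgap1, which forms the centralspindlin complex with Kif23 and binds Ect2, was at least 10.5- and 10.2-fold higher, with adult pools at 60.4 and 67.5 units. Prc1, which bundles the microtubules of the central spindle, was 6.35- and 6.8-fold higher and had adult pools of 167 and 154 units. The kinesins Kif23 and Kif20a of the same structure were 4.21- to 5.13-fold and at least 3.32- to 3.65-fold higher. Kif23 had adult pools of 88.1 and 125 units, with Log2 FC of 2.27 and 1.98 when the lower pool was set to 100.

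Genes of chromosome structure and of the mitotic exit machinery followed the same direction. Mki67, which coats mitotic chromosomes and is the usual marker of dividing cells, had 960 and 980 units in E19 pools, 632 and 520 in P2 pools, and 58.8 and 38.2 in adult pools. The 3 stages did not overlap, and Mki67 exceeded adult at least 9.7-fold at E19 and 5.73-fold at P2 (adjusted p = 0.000203 and 0.000423). Top2a, the topoisomerase that untangles sister chromatids, had 1265.6 and 1290.2 units in E19 pools, 1049.9 and 1047.6 in P2 pools, and 510 and 532 in adult pools, and was 2.45- and 2.01-fold higher. Cdc20, which activates the anaphase-promoting complex, had 807 and 734 units in E19 pools, 705 and 712 in P2 pools, and 105 and 144 in adult pools, a 6.25- and 5.76-fold difference (adjusted p = 0.000314 and 0.000473). Ube2c, the ubiquitin-conjugating enzyme of that complex, had adult pools of 76.6 and 105 units. Its fitted fold was 8 at either stage, and with the pool under 100 units set to 100, the Log2 FC was 2.81. Stmn1, a microtubule destabilizer that is also abundant in young neurons, had 6634.2 and 7585.8 units in E19 pools, 6226.3 and 6147.1 in P2 pools, and 1352.4 and 1285.0 in adult pools. Its adult level was well above background, and it was 5.38- and 4.69-fold higher.

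The kinases and kinetochore proteins mostly had adult intensities under background. Aurkb, Birc5 and Cdca8 act together in the chromosomal passenger complex. Aurkb had 451 and 604 units in E19 pools, 605 and 917 in P2 pools, and 72.4 and 41.7 in adult pools, at least 5.22- and 7.45-fold higher. Cdca8 was at least 3.77- and 3.21-fold higher, and Birc5 had adult pools of 101 and 58.8 units, with Log2 FC of 1.90 and 1.81 when the lower pool was set to 100. Of the spindle checkpoint, Bub1 was at least 4.85- and 5.19-fold, Bub1b at least 2.49- and 2.85-fold and Ttk at least 2.04- and 1.48-fold higher. Aurka, the kinase of the spindle poles, and Kif11, the motor that pushes the poles apart, were at least 2.78- to 2.84-fold and at least 4.46- to 5.86-fold higher, and Cenpf of the kinetochore at least 4.94- to 6.24-fold. The spindle protein Nusap1 and Cdca3, a factor of mitotic entry, were at least 7.67- to 9.26-fold higher across both stages.

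Among these members, 3 had low or uneven values. Plk1, a kinase of mitotic entry and spindle assembly, had 184 and 220 units in E19 pools, 201 and 156 in P2 pools, and 38.6 and 8.84 in adult pools (adjusted p = 0.0105 and 0.0144). Its E19 call was lost without E19 pool 2 (adjusted p = 0.0548) and its P2 call without either P2 pool (0.0696 without pool 1 and 0.0568 without pool 2). Cenpa, the histone variant of the centromere, had 77.6 and 130 units in E19 pools, 79.4 and 90.8 in P2 pools, and 6.17 and 2.74 in adult pools. With values under 100 set to 100, Cenpa was not called at E19 (Log2 FC 0.19, adjusted p = 0.276) and had no measurable difference at P2, and Ttk was not called at P2 (Log2 FC 0.56, adjusted p = 0.0942). Hmgb2 had no probe set of its own. The probe set it shares with Hmgb2l1, Hmgb2l2 and Hmgb2-ps6 had 6063.9 and 6120.3 units in E19 pools, 4908.5 and 4662.2 in P2 pools, and 422 and 450 in adult pools. Tpx2 and Nek2 were not analysed here.

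Cdk1 and the A and B cyclins, which drive S phase and mitosis, were higher at E19 and P2 than in the adult, each with non-overlapping pools. Cdk1 had 1706.7 and 1836.2 units in E19 pools, 1658.9 and 1865.0 in P2 pools, and 57.8 and 59.5 in adult pools. Its excess over adult was at least 17.7-fold at E19 and 17.6-fold at P2 (adjusted p = 5.23e-05 and 8.01e-05). Ccnb2, a partner of Cdk1, had 1242.4 and 1413.0 units in E19 pools, 1275.4 and 1340.2 in P2 pools, and 94.5 and 88.7 in adult pools, at least 13.2- and 13.1-fold higher. Ccnb1, the other B cyclin, had 859 and 925 units in E19 pools, 853 and 1010.4 in P2 pools, and 134 in each adult pool. Its 6.67- and 6.95-fold differences (limma, adjusted p = 0.000121 and 0.000149) are measured only by the cut of 100 units. The study calls that adult level close to background. A second Ccnb1 probe set pointed the same way, with adult pools at 6.61 and 33.8 units.

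Both A cyclins were measured. Ccna2, the A cyclin of dividing body cells, had 525 and 717 units in E19 pools, 487 and 506 in P2 pools, and 19 and 49.8 in adult pools, at least 6.14- and 4.96-fold higher (adjusted p = 0.00144 and 0.00228). Ccna1, known in mouse mainly from the male germ line, had 496 and 472 units in E19 pools, 411 and 500 in P2 pools, and 3.1 and 2.22 in adult pools. It was at least 4.84- and 4.54-fold higher (adjusted p = 5.23e-05 and 8.01e-05). A second Ccna1 probe set had 413 and 455 units in E19 pools, 390 and 436 in P2 pools, and 18.1 and 17.5 in adult pools, so that both probe sets were high before adulthood and under background in adult plexus.

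The D and E cyclins, which act in G1, did not share 1 pattern. Ccnd1 had 1846.9 and 1787.0 units in E19 pools, 2498.2 and 2486.9 in P2 pools, and 509 and 551 in adult pools. It exceeded adult 3.43-fold at E19 and 4.71-fold at P2 (Log2 FC 1.78 and 2.23, SE 0.09, adjusted p = 0.000175 and 0.000136), with P2 on top. Ccnd2 had 6065.8 and 6215.2 units in E19 pools, 3830.5 and 4626.6 in P2 pools, and 3776.4 and 3457.0 in adult pools. Its E19 pools stood apart, 1.7-fold above adult (Log2 FC 0.76, adjusted p = 0.00519), whereas at P2 it was not called (Log2 FC 0.22, SE 0.12, adjusted p = 0.189). Ccnd3 averaged 1653.6 ± 19.9 units at E19, 1490.7 ± 60.7 units at P2 and 1382.2 ± 104 units in adults (SD, n = 2) and was not called at either stage (adjusted p = 0.0677 and 0.373).

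Ccne2, an E cyclin of S phase entry, gave different answers from its 2 probe sets. The brighter had 196 and 190 units in E19 pools, 177 and 180 in P2 pools, and 178 and 205 in adult pools, with overlapping pools and no call (Log2 FC 0.01 at E19 and -0.10 at P2, SE 0.10). The other had 199 and 175 units in E19 pools, 242 and 240 in P2 pools, and 57.9 and 121 in adult pools, and was called higher at both (Log2 FC 1.15 and 1.53, adjusted p = 0.0387 and 0.0184). No direction is therefore given for Ccne2.

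The 2 inhibitors of the kinases ran in opposite directions. Cdkn1a had 958 and 974 units in E19 pools, 1356.2 and 1396.5 in P2 pools, and 3414.2 and 4079.2 in adult pools. It was lower at both stages without overlap, 3.86-fold at E19 and 2.71-fold at P2 relative to adult (Log2 FC -1.95 and -1.44, SE 0.11, adjusted p = 0.000253 and 0.000757). A second Cdkn1a probe set was also lower, with 135 and 179 units in E19 pools, 260 and 341 in P2 pools, and 504 and 545 in adult pools. Cdkn1b had 4659.8 and 4201.9 units in E19 pools, 3332.5 and 4174.4 in P2 pools, and 2542.2 and 2877.7 in adult pools, 1.64- and 1.38-fold higher (adjusted p = 0.012 and 0.0493). The E19 call of Cdkn1b was lost without E19 pool 1 (adjusted p = 0.068) or adult pool 1 (0.0502), and both calls were lost with median centring (0.079 at E19 and 0.347 at P2). Its P2 call was lost without any of E19 pool 1, E19 pool 2, P2 pool 2, adult pool 1 and adult pool 2 (adjusted p = 0.0823, 0.0816, 0.167, 0.166 and 0.0769), and with pool number as a replicate block (0.0676).

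**Figure D4:**
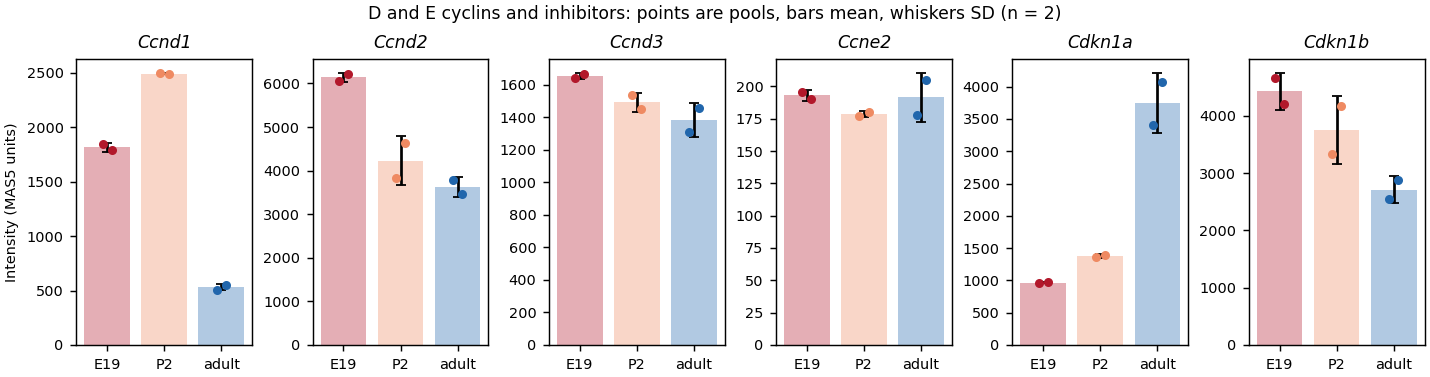
Intensity (MAS5 units, axes starting at 0) of Ccnd1, Ccnd2, Ccnd3, Ccne2 (brighter probe set), Cdkn1a and Cdkn1b at E19, P2 and adult, with each pool as a point, the mean as a bar and the SD as whiskers (n = 2). Ccnd1 averaged 1816.9, 2492.6 and 530 units and Cdkn1a 966, 1376.3 and 3746.7 units in that order of stages.

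Few members were called different across birth. Between P2 and E19, 42 of 44 members were not called, Ccnd1 was higher at P2 and Tyms was lower at P2, against 3.61% of all genes tested higher and 2.56% lower. Tyms reached a mean of 100 units only at E19, so it passed the filter there and had to be lower at P2. Without the filter Tyms was not called (limma, adjusted p = 0.165). Means at P2 and E19 were within 1.5-fold for 42 of 44 members, and for 9270 of 10334 genes tested (89.7%). P2 lay below E19 in 31 of 44 members, against 48.2% of genes tested, with a median Log2 FC of -0.12 over the members and 0.01 over all genes tested. The values for Ccnd1 were 2498.2 and 2486.9 units at P2 and 1846.9 and 1787.0 at E19 (Log2 FC 0.46, SE 0.09, adjusted p = 0.0475), a call lost on leaving out any of the 6 arrays (Log2 FC 0.43 to 0.48, adjusted p from 0.0581 to 0.218). A second Ccnd1 probe set showed a 2.1-fold difference, with 2558.8 and 2909.2 units at P2 and 1223.3 and 1385.2 at E19 (adjusted p = 0.022), and the remaining probe set was not called (1.41-fold, adjusted p = 0.0824). Tyms was at least 1.31-fold lower at P2 (adjusted p = 0.0357), a call lost on leaving out any of the E19 or P2 pools (adjusted p from 0.0912 to 0.181).

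The largest fall across birth that was not called was that of Mki67, with 632 and 520 units at P2 and 960 and 980 at E19 (Log2 FC -0.76, SE 0.23, adjusted p = 0.11). It was called with values under 100 set to 100 (adjusted p = 0.0155), with an intensity trend and robust prior (0.0396) and with the 4 arrays of the 2 stages alone (0.0407). Cdkn1a (Log2 FC 0.51, adjusted p = 0.0613) and Ccnd2 (Log2 FC -0.54, adjusted p = 0.0638) were likewise not called, but were called under 6 alternatives for Cdkn1a (adjusted p from 0.00848 to 0.0491) and 3 for Ccnd2 (from 0.00532 to 0.04). Kif11 was not called by its brighter probe set (Log2 FC -0.39, adjusted p = 0.379). Its other probe set had 107 and 96.8 units at E19 and 51.5 and 60.6 at P2. This probe set was called lower at P2 (limma, adjusted p = 0.0396), but passed the filter only through E19 and so had to be lower. Kif11 was also called with the mean of all its probe sets (Log2 FC -0.63, adjusted p = 0.0481). In contrast, Cdk1, Ccnb2, Pcna and Ube2c had P2 and E19 means that differed by no more than 1.01-fold.

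**Figure D5:**
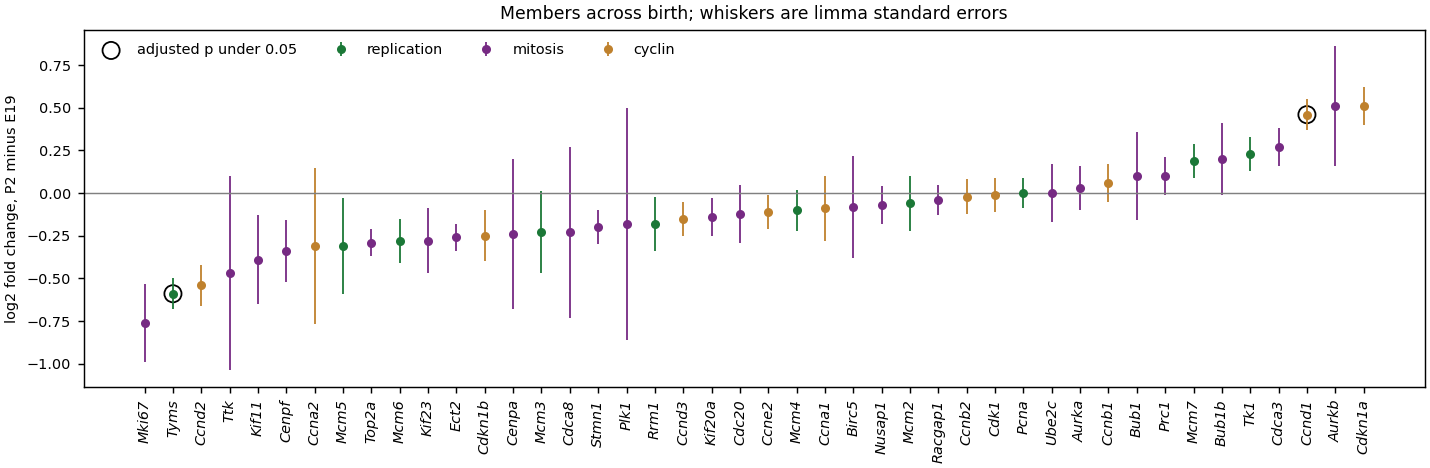
Log2 FC of P2 minus E19 for 44 members in ascending order (points) with the limma standard error (whiskers), coloured by subset, and with circles around Tyms and Ccnd1, the 2 called members. Fitted values ran from -0.76 for Mki67 to 0.51 for Cdkn1a.

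Other genes of the cell cycle were listed apart from the members. Of 47 other mitosis genes tested, 44 were higher at each of E19 and P2 relative to adult and 3 were not called (limma). Over all genes tested, 31.4% were higher at E19 and 28.8% at P2. The adult mean was under 100 units for 30 of the 47, which passed only through E19 or P2, and of the other 17, 15 were higher at each stage. Cks2, a small subunit of cyclin-dependent kinase complexes, had 2139.9 and 2298.6 units in E19 pools, 1865.1 and 2257.9 in P2 pools, and 63.9 and 70.4 in adult pools, at least 22.2- and 20.5-fold higher. Cenpw and Cenpe of the kinetochore were at least 8.38- and 6.55-fold and at least 1.91- and 1.29-fold higher, and Tacc3, Kif15 and Ska1 of the spindle at least 3.36- to 4.28-fold. Pttg1, the securin of anaphase, chosen after its values were seen, had a fitted fold of 13.5 and 14.7, with adult pools of 193 and 46.5 units. With the lower adult pool set to 100, its Log2 FC was 3.20 and 3.32. Lmnb1 of the nuclear lamina, with adult pools of 393 and 372 units, was a measured 9.89- and 6.3-fold higher. It was also the 1 gene of this list called across birth, with 2218.9 and 2619.2 units at P2 and 3823.8 and 3744.1 at E19 (Log2 FC -0.65, adjusted p = 0.0392).

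Of 40 other replication genes tested, 30 were higher and 3 lower at E19, and 27 were higher and 2 lower at P2. Among all genes tested, 31.4% were higher and 25.2% lower at E19, and 28.8% and 21.8% at P2. With an adult mean of 100 units or more (30 genes), 20 were higher at E19 and 18 at P2. Cdt1, which loads the Mcm helicase, was at least 4.54- and 3.48-fold higher, and Timeless of the replication fork was 3.36- and 1.87-fold higher. Gins1 of the active helicase, the polymerase alpha subunit Pola2 and the histone chaperone Chaf1a were at least 1.62- to 2.49-fold higher. Rpa1, the single-strand binding protein that also serves repair, ran the other way, with 1705.3 and 1747.6 units in E19 pools, 2402.3 and 2249.6 in P2 pools, and 4840.9 and 4153.8 in adult pools (2.6- and 1.93-fold lower, adjusted p = 0.000585 and 0.00223). Mcm8 and Orc5 were lower at E19 (2.08- and 1.42-fold), and the clamp loader subunit Rfc1 was lower at P2 (1.35-fold). Across birth Uhrf1, which guides DNA methylation at the fork, was at least 2.5-fold higher at P2, Rfc2 was 1.49-fold higher at P2 and Timeless was 1.8-fold lower at P2.

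Of 34 other regulators tested, 17 were higher and 1 lower at E19, and 17 were higher and 3 lower at P2. The shares of all genes tested were 31.4% higher and 25.2% lower at E19, and 28.8% and 21.8% at P2. With an adult mean of 100 units or more (29 genes), 12 were higher at each stage, and 16 at E19 and 14 at P2 were not called. The repressors E2f7 and E2f8 were at least 6.16- and 5.11-fold and at least 2.24- and 1.83-fold higher. Cdc25b, a phosphatase that activates Cdk1, was 3.3- and 2.34-fold higher, Cdk4, a partner of D cyclins, 2.72- and 2.32-fold, and the phosphatase Cdkn3 3.22- and 3.36-fold. The inhibitor Cdkn2c was 1.58- and 2.41-fold higher. Foxm1, an activator of mitotic genes, had 102 and 97.7 units in E19 pools, 110 and 105 in P2 pools, and 37.4 and 38.8 in adult pools, with no pool above 110 units. Tfdp2, a partner of E2F proteins, was 2.42- and 1.96-fold lower, and at P2 Mdm2 and Ccng1 were 1.3- and 1.24-fold lower.

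Markers of several cell types moved with the stages as well. For comparison, 31.4% of all genes tested were higher and 25.2% lower at E19, and 28.8% and 21.8% at P2. Of 12 epithelium markers tested, 3 were higher and 6 lower at E19, and 2 were higher and 6 lower at P2. Their summed intensity (13 measured) was 79824.4 to 80572.3 units in E19 pools, 85986.1 to 90376.1 in P2 pools, and 114374.5 to 117073.3 in adult pools. Ttr, Aqp1, Otx2 and Folr1 lay between 8378.6 and 14847.2 units over all pools. The markers higher at E19 relative to adult were Krt8 (1.75-fold), Krt18 (1.45-fold) and Otx2 (1.21-fold). Prlr (21.8-fold), Slc4a10 (5.67-fold), Cldn2 (3.56-fold), Kl (3.38-fold), Trpv4 (2.38-fold) and Enpp2 (1.7-fold) were lower at E19 relative to adult, and Kcnj13 was under 100 units in every pool. All 10 endothelium markers were higher at both stages, with sums of 10975.5 to 11531.6 units in E19 pools, 10075.8 to 10974.6 in P2 pools, and 2029.4 to 2094.8 in adult pools. Of 10 fibroblast markers, 8 were higher at each stage and 2 at E19 and 1 at P2 were lower, with sums of 23662.5 to 23866.7, 24924.3 to 28739.0 and 8888.9 to 9383.7 units at E19, P2 and adult. Of 6 neural progenitor markers tested (11 measured), 4 were higher at each stage and Pax6 was lower at E19, with sums of 3508.7 to 3707.4, 3858.9 to 4627.5 and 2218.9 to 2481.8 units. All 5 erythroid markers tested were higher at E19 and 4 at P2, with sums over 10 measured of 21955.9 to 22469.8, 18483.5 to 19846.9 and 14719.5 to 15097.0 units. Among these tested markers, those with adult means under 100 units passed the filter only through E19 or P2 and so had to be higher there. They were Pecam1, Flt1, Tie1 and Eng (endothelium), Col6a1 (fibroblast), Nes and Fabp7 (neural progenitor), and Slc4a1, Tal1 and Ahsp (erythroid). The part of these cell types in the members' differences was not tested. Probe sets at 100 units or more made up 53.3 and 53.5% of the E19 arrays, 53.5 and 52.7% of the P2 arrays and 51 and 50% of the adult arrays. The median intensity was 124.5 and 125.1 units for E19, 125.6 and 120.4 units for P2, and 106.1 and 100.1 units for adult arrays, which stood apart on both measures. On all arrays, log2 intensities of the 2 pools of a stage correlated with r of 0.9783 to 0.9884 across probe sets.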

How the data were processed

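Lateral ventricle choroid plexuses were measured on Affymetrix Rat Genome 230 2.0 arrays, with 2 pools at each of E19, P2 and adult. The deposited values are linear signal intensities, which the authors computed with the MAS5 algorithm in Affymetrix Expression Console (their versions are not given in the sources used here). Every array had the same trimmed mean, 500.2 units, so values are relative to the array's overall signal. The table held 31099 probe sets, 57 of them controls. The platform annotation gave 20832 probe sets a single gene and 436 several, and gene numbers were matched to RefSeq.

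A probe set was tested if its mean reached 100 units at 1 stage or more, which 17808 did. Their log2 intensities on all 6 arrays entered a single limma fit (limma 3.58.1, R 4.3.3) that estimated a mean for each stage. Benjamini-Hochberg adjustment covered every probe set tested in a comparison, and calls were made under 0.05. A fold is 2 to the power of the Log2 FC. Where both pools of a stage were under 100 units, it is a bound against 100 units, and none is given where both stages were. The procedure was also run on simulated normal values with shifts added at E19 only, and no result here rests on that run. For arrays, the number of pools limits precision.

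All members could be named, and of the other cell cycle lists up to 5 called genes of largest Log2 FC per comparison, with any called in the opposite direction. This order used Log2 FC as fitted, which against values under 100 units is no measured size. Other probe sets of a member were given where they differed or bore on a call. The members and lists were chosen with earlier results of these data known. Marker lists of mural cells, macrophages, neurons and glia were also measured. Of mural markers 4 of 7 tested were higher at E19 and 5 at P2 (1 and 0 lower), of macrophage markers 2 and 7 of 11 (3 and 1 lower), of neuron markers 0 and 2 of 5 (1 lower at each), and of glia markers 1 of 5 at each stage, with 4 glia markers lower at E19 and 3 at P2. Over all genes tested, 31.4% were higher and 25.2% lower at E19, and 28.8% and 21.8% at P2. Of the called markers, Tagln, Des, Cd68, Mrc1, Stmn2 and Gap43 passed the filter only through E19 or P2 and had to be higher there. The glia markers Mbp, Mobp and Gfap passed only through the adult and had to be lower before it. The adult pools had 1989.1 and 656 units of Mbp and 375 and 136 of Mobp. Alternatives changed the filter, scaling, treatment of low values, prior on the spread, arrays in the fit, pairing, probe sets and threshold, and left out each array in turn, and a stage left with 1 pool then took its spread from the remaining stages. Pool numbers do not pair samples.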

Additional observations from a re-analysis of the deposited data

Results flagged for a closer look

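The difference from adult was not the same at E19 and P2 for 2 of 44 members, by the test of P2 against E19. Over all genes tested, 3.61% were higher and 2.56% lower at P2. Tyms passed the filter only through E19 and so had to be lower at P2. Ccnd1 had a Log2 FC of 0.46 for P2 minus E19 (adjusted p = 0.0475, limma), with both P2 pools above both E19 pools, and lost its call without any of the 6 arrays (Log2 FC 0.43 to 0.48, adjusted p from 0.0581 to 0.218). Tyms had a fitted Log2 FC of -0.59 (adjusted p = 0.0357) with both P2 pools under 100 units, so that it is at least 1.31-fold lower at P2, and lost its call without any of the 4 E19 and P2 arrays (adjusted p from 0.0912 to 0.181). With 2 pools per stage, no sample was tested as an outlier.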

How the results depend on the processing

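Over 17 alternatives, E19 versus adult gave 36 to 41 members higher and P2 versus adult 36 to 39, each with 1 lower. Call and direction were unchanged under every alternative for 36, 37 and 38 of 44 members in E19 versus adult, P2 versus adult and P2 versus E19. Centring arrays on their medians moved the median Log2 FC of all tested probe sets to -0.25 at E19 and -0.24 at P2, against 0.05 and 0.04 as deposited.

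P2 versus E19 depended on the setting. Members higher numbered 0 without a filter, with median centring, with the replicate block, at adjusted p under 0.01 and with at least 2-fold required. They numbered 2 with a stage mean of 200 units, quantile normalization, values under 100 set to 100, an intensity trend with robust prior, and the 4 arrays of the 2 stages. Members lower numbered 0 without a filter, with median centring, quantile normalization, the replicate block, at adjusted p under 0.01 and with at least 2-fold required. They numbered 2 with the trend, the 4 arrays and the mean of all probe sets, and 3 with values under 100 set to 100. Leaving out each array gave 0 to 1 higher and 0 to 1 lower. The causes were not tested.

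Setting values under 100 to 100 moved the median Log2 FC to 1.21 at E19 and 1.21 at P2 for replication (1.55 and 1.46 without), and to 2.38 and 2.23 for mitosis (3.24 and 3.17 without), by construction. With the mean of all probe sets, Ccne2 at P2 versus adult turned to a Log2 FC of 0.71 (adjusted p = 0.0451), since its other probe set was higher.

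Pool numbers did not pair samples (r of same-numbered deviations -0.0571, -0.0406 and 0.00694 for the 3 pairs of stages). The replicate block gave 41 members higher at E19 and 38 at P2 and ended the calls of Cdkn1b at P2 versus adult (adjusted p = 0.0676) and, across birth, of Ccnd1 (0.0958) and Tyms (0.0793).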
